A study of Mus musculus with 32 samples.

Results

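The study's list of mRNAs whose translation was activated by eIF4E places 6 genes in the category mitosis. They are Aurkb, Cdc25a, Mad2l1bp, Cetn3, Pes1 and Tent4b, the last of which is listed under its older name 5730445M16Rik. The 6 genes were followed here in all conditions, as 6 of the 15247 rows of the expression table, each row being a cDNA clone printed as 2 spots on the Mouse 15K3 array. Each gene was found through the mean difference in polysomal ratio between the cell lines that the study lists for its clone, because the row names of the deposited table belonged to other values. The clones were H3002E12 for Aurkb, H3004B08 for Cdc25a, H3125H04 for Mad2l1bp, H3150D03 for Cetn3, H3121H04 for Pes1 and H3077B10 for Tent4b. The polysomal difference between the lines thus chose the genes, and it is described below without a test.

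RNA came from 3T3-tTA-eIF4E cells and from their parental line 3T3-tTA. Both are NIH 3T3 mouse fibroblasts that carry the tetracycline-controlled transactivator tTA, which is active without tetracycline, and 3T3-tTA-eIF4E cells carry in addition an eIF4E gene under its control. Induced cells of either line had been without tetracycline for 5 h, and uninduced cells had been kept in it. The response of 3T3-tTA is thus that to the loss of tetracycline, with tTA active but without the added eIF4E gene. Of the 16 arrays, 4 per line compared total RNA of induced with total RNA of uninduced cells, and 4 per line compared RNA of heavy polysomes of induced cells with total RNA. Cells for the gradients had been treated with cycloheximide, which holds ribosomes on the mRNA. The 4 arrays of a condition were made from 2 extractions of RNA, with a dye swap for either, and 1 eIF4E-inducible line was studied, so that the spread between arrays covers repeat extraction and hybridization but no second line. The sources differ on the total RNA that was set against polysomal RNA of 3T3-tTA-eIF4E, which was from uninduced cells by the labels and from induced cells by the study's methods. The methods were followed.

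eIF4E binds the cap at the start of an mRNA and brings it to the ribosome. The amount of eIF4E limits the translation of some mRNAs more than that of others, and the share of an mRNA that sediments with heavy polysomes is a common measure of how actively it is translated. In mitosis the cell condenses its chromosomes, builds a spindle between a pair of centrosomes, waits until each chromosome is attached to it, and then divides. Cdc25a is a phosphatase that activates cyclin-dependent kinases and so drives cells into DNA synthesis and mitosis. Aurkb is the kinase of the chromosomal passenger complex, which corrects attachments of chromosomes to the spindle and acts in cytokinesis. Mad2l1bp (p31comet) binds the checkpoint protein Mad2 and helps to silence the spindle checkpoint. Cetn3 is a centrin, a small calcium-binding protein of the centrosome. Pes1 is a nucleolar protein of ribosome synthesis that is needed for proliferation, and Tent4b (Papd5) is a noncanonical poly(A) polymerase, so that these genes are not known mainly for a role in the spindle.

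The start sites of the genes are shown because features of the first transcribed bases set how strongly some mRNAs depend on the cap-binding machinery, such as the tract of pyrimidines after an initial C (the TOP motif) of ribosomal protein mRNAs. RefSeq start sites of build GRCm38.p6 were found for 5 of the 6 genes. Each line shows 15 bases before the annotated start and the first 15 transcribed bases, 5′ to 3′, with the pyrimidines that follow the start without interruption in capitals. They span chr9:109875564-109875593 (plus strand) for Cdc25a, chr17:46153537-46153566 (minus strand) for Mad2l1bp, chr13:81783232-81783261 (plus strand) for Cetn3, chr11:3963960-3963989 (plus strand) for Pes1, and chr8:88199198-88199227 and chr8:88199867-88199896 (plus strand) for the 2 annotated starts of Tent4b.
Cdc25a: aattaacgctaaggcCactttggtggtgag
Mad2l1bp: gcttaagcttcccatgattctttgcggggc
Cetn3: gcgcccagaaacttgTCTggtgggtggtcc
Pes1: cagggccctaggcagggcacgtgcgggagg
Tent4b, start 1: cggcgcaaaccagtcactttccgcggagtc
Tent4b, start 2: ggccgggaggggcgggggcagcggccgccg

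A C at the start followed by at least 4 further C or T bases, read on the transcribed strand at the annotated start only, was found at 0 of these 6 starts. Of all 32851 start windows in the RefSeq table, 2.51% had it, as did 18.3% of 71 windows of ribosomal protein genes. The study describes the motif in all ribosomal protein mRNAs of mammals, so that a count at annotated starts misses many. At a share of 2.51% over all windows, 0 of 6 starts is also the usual outcome. The count therefore does not show that these mRNAs lack the motif. The longest run was that of Cetn3, with 3 pyrimidines counted from a start at T. The GC content of the first 50 transcribed bases was 54.0% for Mad2l1bp, 56.0% for Pes1, 58.0% for Cdc25a, 66.0% for Cetn3, and 72.0% and 70.0% for the starts of Tent4b, against a median of 56.0% over all windows.

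Eif4e itself was followed on the total RNA arrays only, so that it does not cover the labels of the polysomal arrays. Its rows were found by their listed difference between the lines in total RNA, so that a large difference was given in advance. On the total RNA arrays its 3 clones had log2 induced/uninduced ratios of 2.09 to 5.16 in 3T3-tTA-eIF4E and of -0.21 to 0.27 in 3T3-tTA. Duplicate spots had correlations across rows of 0.56 to 0.92 on the polysomal and of 0.77 to 0.90 on the total RNA arrays. Dye was a large part of the signal. After all ratios had been turned to polysomal over total, or induced over uninduced RNA, arrays of the same line with opposite dyes had correlations of -0.42 to 0.13 for polysomal and of -0.61 to 0.14 for total RNA, whereas arrays of different lines with the same dye had correlations of 0.30 to 0.82 and of 0.40 to 0.62. Each condition held 2 arrays of each orientation. Of 12 fibroblast markers 2 could be looked up in the table, and Col1a2 lay above background on all 4 polysomal arrays with scanner intensities while Dcn did not. The endothelial marker Pecam1 lay above background as well, and no epithelial or blood marker could be looked up.

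All 6 genes had a higher mean log2 polysomal ratio, the ratio of heavy polysomal to total RNA, in 3T3-tTA-eIF4E than in the parental line, as the way in which they were chosen requires. The differences were 1.26 for Tent4b (2.40-fold), 0.90 for Aurkb (1.87-fold), 0.58 for Cdc25a (1.49-fold), 0.56 for Cetn3 (1.47-fold), 0.50 for Pes1 (1.41-fold) and 0.45 for Mad2l1bp (1.36-fold). The values and ranks of Tent4b and Pes1 are those of the deposited ratios, and their spots were not above background on all scanned arrays, so that their folds are uncertain. The median of the 6 genes, 0.57, stood beside a median of 0.01 over all 15247 rows, of which the central 90% lay between -0.51 and 0.50. Among the 301 clones that the study lists as activated and that were found in 1 row, the genes took ranks 12 (Tent4b), 42 (Aurkb), 153 (Cdc25a), 169 (Cetn3), 216 (Pes1) and 252 (Mad2l1bp), and the smallest difference of that list was 0.34. A difference larger than that of Mad2l1bp was found in 994 rows, of which 743 belong to no listed clone. For Mad2l1bp alone did the 4 arrays of 3T3-tTA-eIF4E all lie above the 4 arrays of 3T3-tTA, as they did in 0.728% of all rows.

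**Figure D1:**
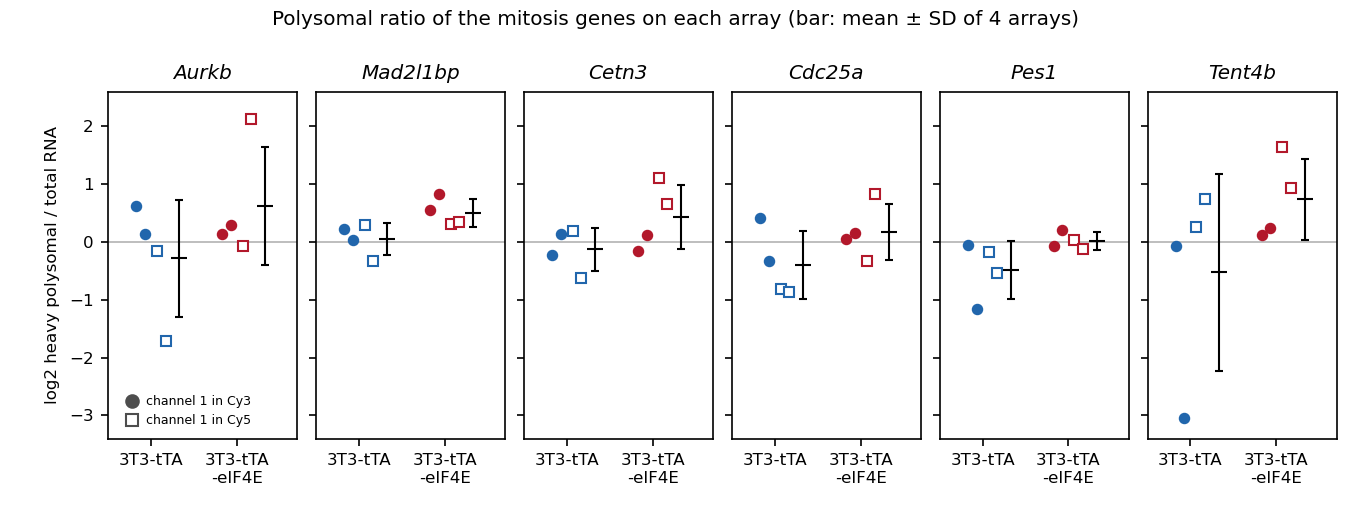
Log2 ratio of heavy polysomal to total RNA (vertical axis) of each mitosis gene on the 4 arrays of 3T3-tTA (blue) and of 3T3-tTA-eIF4E (red). Circles are arrays with channel 1, the polysomal RNA, in Cy3 and open squares arrays with it in Cy5, each point is the mean of 2 spots, and the bars give the mean ± SD of 4 arrays. Only the arrays of Mad2l1bp do not overlap between the lines, and single arrays stand far out for Aurkb (2.14 and -1.71), Pes1 (-1.16) and Tent4b (-3.04).

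The kinase Aurkb had log2 polysomal ratios of 0.15 (P5), 0.30 (P7), -0.07 (P1) and 2.14 (P3) in 3T3-tTA-eIF4E, where arrays are named by their first sample and the first pair of each line had the polysomal RNA in Cy3. In 3T3-tTA the ratios were 0.63 (P9), 0.13 (P11), -0.16 (P13) and -1.71 (P15). P3 lay far above and P15 far below all other arrays, both with polysomal RNA in Cy5, and the other 6 arrays overlapped. The means were 0.63 ± 1.02 and -0.28 ± 1.01 (SD, n = 4 arrays each), so that the difference of 0.90 was smaller than the SD within a line. It was 0.25 without P3 and 0.38 without P15. On the Cy3 arrays alone it turned to -0.16, against 1.97 on the Cy5 arrays. The scanner intensities of P3 showed polysomal signals of 4267 and 3383 on the duplicate spots over backgrounds of 248 and 234, and total RNA signals of 543 and 604, so that both spots of this clone were bright in the polysomal channel. On P7, the scanned array of the same line with the dyes exchanged, the polysomal signals were 559 and 538. RefSeq lists a pseudogene of Aurkb, and a cDNA spot may not tell its RNA from that of the gene. This was not tested, since the sequence of the clone was not at hand.

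The phosphatase Cdc25a had log2 polysomal ratios of 0.05 (P5), 0.15 (P7), -0.33 (P1) and 0.84 (P3) in 3T3-tTA-eIF4E. The parental arrays gave 0.41 (P9), -0.33 (P11), -0.81 (P13) and -0.86 (P15). The lines overlapped, and the highest value of the parental line stood above 3 of the 4 values of 3T3-tTA-eIF4E. The means were 0.18 ± 0.49 and -0.40 ± 0.59 (SD, n = 4 arrays each). The difference of 0.58 was 0.24 without P3, and it was 0.06 on the Cy3 arrays and 1.09 on the Cy5 arrays. Cdc25a and Aurkb thus shared a pattern in which P3 was highest and the Cy5 arrays carried the difference, and their correlation over the 8 polysomal arrays, with the dye term of each gene removed, was 0.90. On P3 the first spot of Cdc25a had a total RNA signal of 267 over a background of 229. On the 4 scanned arrays its difference was 1.09 as deposited and 0.36 after background correction by normexp. The SD across rows of the polysomal arrays was 0.48 to 1.00. With arrays scaled to the same spread, the differences were 0.58 for Aurkb and 0.39 for Cdc25a. The part of unequal spread in the shared pattern was not tested.

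Mad2l1bp, which acts on the spindle checkpoint, had log2 polysomal ratios of 0.56 (P5), 0.83 (P7), 0.30 (P1) and 0.34 (P3) in 3T3-tTA-eIF4E, all above 0. The ratios in 3T3-tTA were 0.23 (P9), 0.04 (P11), 0.29 (P13) and -0.32 (P15). The lowest array of 3T3-tTA-eIF4E lay 0.01 above the highest of 3T3-tTA. The means were 0.51 ± 0.24 and 0.06 ± 0.28 (SD, n = 4 arrays each), with the smallest pooled SD of the 6 genes (0.26), and the difference was 0.35 to 0.59 when any array was left out. It was 0.56 on the Cy3 and 0.34 on the Cy5 arrays. The duplicate spots of P11 stood at 0.51 and -0.42, wider apart than the difference itself. From the first spots alone the difference was 0.31, and from the second spots alone 0.58. On the 4 scanned arrays it was 0.72 as deposited and 0.78 after background correction by normexp. On P15 the polysomal signal of the second spot was 956, below its local background of 1365.

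Cetn3, the centrin, had log2 polysomal ratios of -0.15 (P5), 0.13 (P7), 1.11 (P1) and 0.65 (P3) in 3T3-tTA-eIF4E. In 3T3-tTA they were -0.23 (P9), 0.14 (P11), 0.20 (P13) and -0.62 (P15). The Cy5 arrays P1 and P3 lay above all others, whereas the Cy3 arrays of the lines overlapped. The means were 0.43 ± 0.56 and -0.13 ± 0.38 (SD, n = 4 arrays each). The difference of 0.56 was 0.03 on the Cy3 and 1.09 on the Cy5 arrays, 0.36 without P1 and 0.29 without P15. When the 4 scanned arrays were background-corrected by normexp and normalized again it turned to -0.18, against 0.63 from the deposited values of the same arrays. On P3 the local polysomal background of one spot of Cetn3 was 3583, above its signal of 2137.

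Pes1, of ribosome synthesis, had log2 polysomal ratios of -0.06 (P5), 0.22 (P7), 0.04 (P1) and -0.13 (P3) in 3T3-tTA-eIF4E, close to 0 on each array. Those of 3T3-tTA were -0.05 (P9), -1.16 (P11), -0.17 (P13) and -0.54 (P15), all below 0. By the deposited values, the difference thus lay in the parental arrays. The means were 0.02 ± 0.15 and -0.48 ± 0.50 (SD, n = 4 arrays each), and the difference of 0.50 was 0.24 without P11. The duplicate spots of P11 stood at -0.18 and -2.13, and their total RNA signals were 554 and 2402. Their polysomal signals of 261 and 250 lay below their local backgrounds of 264 and 295, so that this channel gave only a bound on P11. From the first spots alone the difference was 0.18, and from the second spots alone 0.82.

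Tent4b, the poly(A) polymerase, had log2 polysomal ratios of 0.12 (P5), 0.25 (P7), 1.64 (P1) and 0.93 (P3) in 3T3-tTA-eIF4E, all above 0. The arrays of 3T3-tTA stood at -0.06 (P9), -3.04 (P11), 0.26 (P13) and 0.74 (P15). P11 lay far below every other array, and the remaining arrays of the lines overlapped. The means were 0.74 ± 0.70 and -0.53 ± 1.71 (SD, n = 4 arrays each), so that the largest difference among the genes, 1.26, was smaller than the pooled SD of 1.31. That SD also holds the effect of the dye, with a dye term of -1.58. The difference was 0.57 without P11. The spots of P11 had total RNA signals of 4400 and 4968 over backgrounds of 497 and 375, while their polysomal signals of 249 and 258 lay below their local backgrounds of 294 and 286. The polysomal channel thus gave only a bound on this array. The duplicate spots of P1 stood at 0.22 and 3.06.

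**Figure D2:**
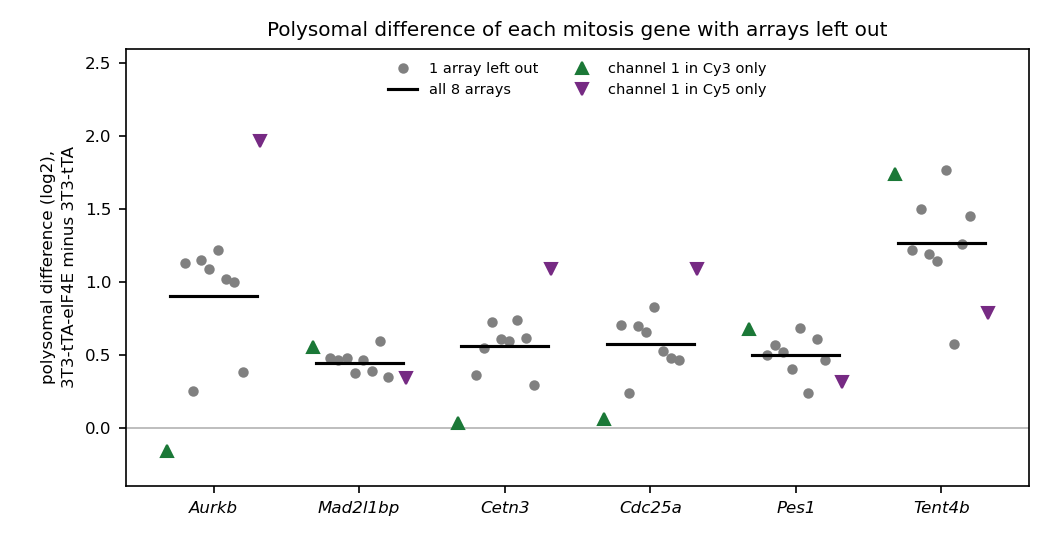
Polysomal difference of each mitosis gene, 3T3-tTA-eIF4E minus 3T3-tTA, on the log2 scale (vertical axis). Black lines are the values over all 8 arrays, grey points those with each array left out in turn, and triangles those of the arrays with channel 1 in Cy3 (up) or Cy5 (down) alone. With an array left out Mad2l1bp varied least (0.35 to 0.59), and on the Cy5 arrays alone it was 0.34. Aurkb was 0.25 without P3, and Tent4b was 0.57 without P11.

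Differences on the Cy3 and the Cy5 arrays were both above 0 for 5 of the 6 genes and in 29% of all rows. The genes were chosen for a positive difference on these arrays, so that nothing is read from this count. For Aurkb, Cdc25a and Cetn3 nearly all of the difference came from the Cy5 arrays, and for Tent4b, Pes1 and Mad2l1bp it was larger on the Cy3 arrays. With the total RNA of 3T3-tTA-eIF4E read as that of uninduced cells, as the labels have it, the differences became 1.32 for Tent4b, 0.80 for Aurkb, 0.64 for Cetn3, 0.60 for Cdc25a, 0.50 for Mad2l1bp and 0.44 for Pes1. All 4 arrays of 3T3-tTA-eIF4E lay above 0 for Mad2l1bp and Tent4b and in 12.4% of all rows, and all 4 arrays of 3T3-tTA lay below 0 for Pes1 and in 7.53% of all rows.

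The brightness of the spots differed between the genes. On the 4 polysomal arrays with scanner intensities (P3 and P7 of 3T3-tTA-eIF4E, P11 and P15 of 3T3-tTA), 4 of the 6 genes reached 1.5 times the local background, as the mean of their 2 spots, in at least 1 channel on every array, as did 11470 of the 15247 rows. Pes1 and Tent4b did not, although at least 1 spot of Tent4b did so on each array. The polysomal channel of Pes1 stood at 0.80 to 1.12 times background on P7, P11 and P15, and that of Tent4b lay below background on 6 of its 8 spots. The values of these genes are therefore ratios of signals close to background on most of the scanned spots, and their part in the differences between the lines was not tested.

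**Figure D3:**
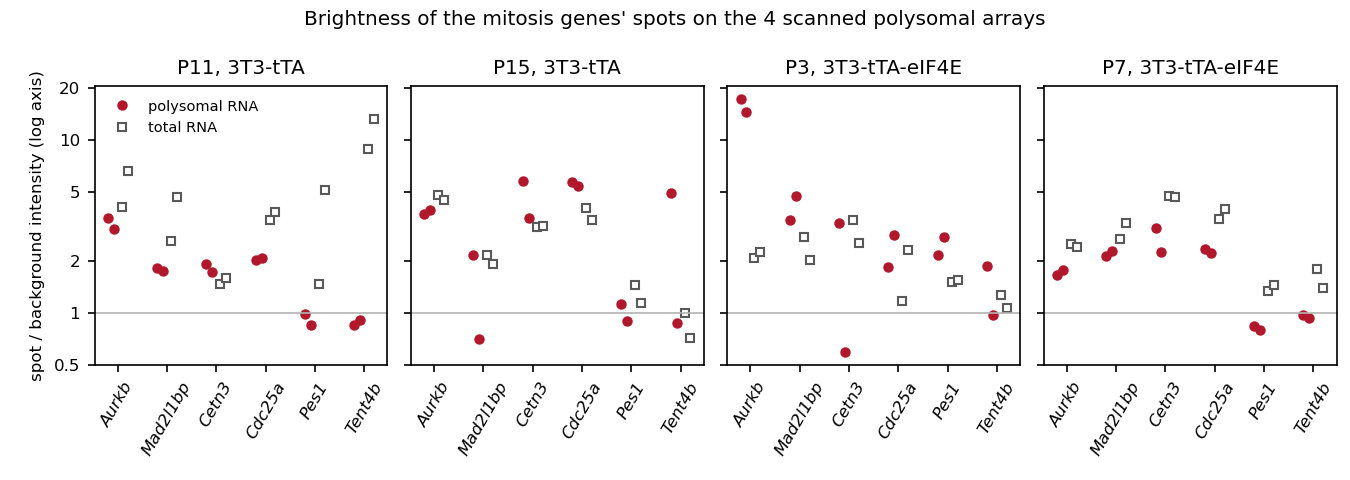
Spot intensity over local background (log axis) of each mitosis gene on the 4 polysomal arrays with scanner intensities, for polysomal RNA (red circles) and total RNA (open squares), with 2 spots each. Aurkb reached 17.2 and 14.5 in the polysomal channel of P3, and Tent4b 8.85 and 13.2 in the total RNA channel of P11, while most other spots of Tent4b and Pes1 lay near 1.

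The mean of both lines was tested to see whether the mRNAs lay above or below the typical polysomal ratio. It is not the measure by which they were chosen, but it is independent of that difference only where the lines vary equally. The SD was 0.15 and 0.50 for Pes1 and 0.70 and 1.71 for Tent4b, so that the choice may also have moved the means of these genes. The mean log2 polysomal ratio of both lines was 0.28 for Mad2l1bp (SE 0.12), 0.18 for Aurkb (SE 0.26), 0.15 for Cetn3 (SE 0.15), 0.11 for Tent4b (SE 0.31), -0.11 for Cdc25a (SE 0.15) and -0.23 for Pes1 (SE 0.16). Single arrays moved these means. That of Aurkb was -0.15 without P3 and 0.44 without P15, and that of Tent4b -0.14 without P9 and 0.45 without P11. The mean of Cetn3 was 0.05 without P1 and 0.29 without P15, that of Cdc25a -0.28 without P3 and -0.04 without P1, and that of Pes1 -0.10 without P11. Limma on the means of the extractions called 0 of the 6 genes at an adjusted p under 0.1 and at least 1.3-fold, against 1.12% of all rows called as higher and 1% as lower. At an unadjusted p under 0.05 stood 0 of the 6 genes and 14.4% of all rows. The lowest adjusted p of the genes was 0.371, for Mad2l1bp, from limma. With arrays as replicates limma gave Mad2l1bp an unadjusted p of 0.0186 and an adjusted p of 0.118, and over all alternatives its adjusted p ranged from 0.0766 without P15, at a mean ratio of 0.33 that missed the limit on the fold, to 0.520. At this precision no gene could be told apart from the average mRNA in its polysomal ratio. The median of the 6 genes was 0.13 and that of all rows 0.04.

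Total RNA was followed to see whether the amounts of these mRNAs differed as well. RNA was taken from whole cultures, so that a different share of cells in mitosis and a different amount of RNA per cell cannot be told apart. After 5 h without tetracycline none of the 6 mRNAs was called as changed, in either line or between the lines. On the log2 scale, the change in 3T3-tTA-eIF4E minus that in the parental line was 0.25 for Cdc25a (SE 0.14), 0.19 for Aurkb (SE 0.18), 0.09 for Cetn3 (SE 0.11), 0.02 for Pes1 (SE 0.15), -0.002 for Mad2l1bp (SE 0.10) and -0.03 for Tent4b (SE 0.13). All adjusted p-values were 1.00 from limma on extraction means, which called 0% of all rows in either direction. The 3 clones of the induced Eif4e were not called between the lines either (adjusted p = 0.438 to 1.00 from limma), so that a count of 0 does not show that the mRNAs were stable. With arrays as replicates limma called 2 of the 3 Eif4e clones and 0 of the 6 genes. The share of all rows called in that setting was not counted, so that this 0 shows no stability either. At an unadjusted p under 0.05 stood 0 of the 6 genes and 0.446% of all rows. Over all alternatives the adjusted values of the 6 genes ranged from 0.809, for Tent4b by SAM under 1 of 4 pairings, to 1.00. Single arrays decided part of the larger differences. That of Cdc25a was 0.11 without T1, that of Aurkb 0.07 without T7 and 0.32 without T3, and that of Cetn3 0.04 without T1 and 0.16 without T7. The median of the genes was 0.05 and that of all rows -0.01. The arrays of the lines overlapped for all 6 genes. They did not overlap, in one direction or the other, in 0.918% of all rows.

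**Figure D4:**
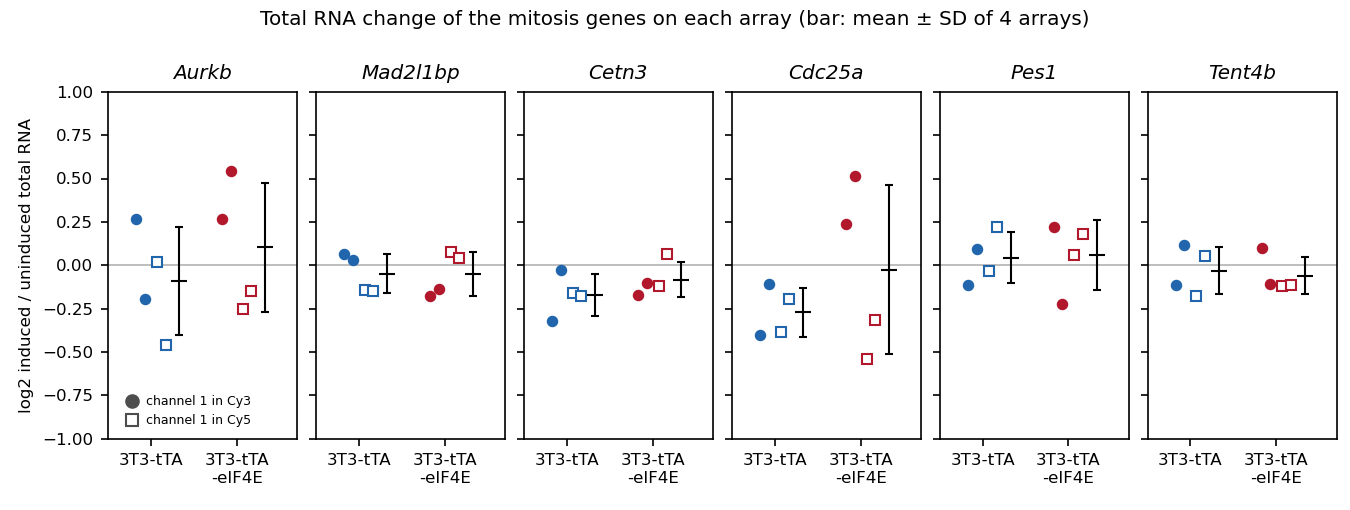
Log2 ratio of total RNA of induced to uninduced cells (vertical axis) of each mitosis gene on the 4 arrays of 3T3-tTA (blue) and of 3T3-tTA-eIF4E (red), drawn as in the plot of polysomal ratios. The arrays of the lines overlap for every gene. In 3T3-tTA-eIF4E the Cy3 and Cy5 arrays of Aurkb and Cdc25a lie apart, and those of Mad2l1bp do so by less and in the opposite direction.

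Aurkb and Cdc25a had the largest differences and the widest spread in total RNA. The log2 induced/uninduced ratios of Aurkb were 0.27 (T11), 0.55 (T13), -0.25 (T9) and -0.15 (T15) in 3T3-tTA-eIF4E, with the induced RNA in Cy3 on the first pair of each line. In 3T3-tTA they were 0.27 (T1), -0.19 (T7), 0.02 (T3) and -0.46 (T5). The ratios of Cdc25a were 0.24 (T11), 0.51 (T13), -0.54 (T9) and -0.31 (T15) in 3T3-tTA-eIF4E. In 3T3-tTA they were -0.40 (T1), -0.11 (T7), -0.38 (T3) and -0.20 (T5), all below 0. In 3T3-tTA-eIF4E both genes were above 0 on both Cy3 arrays and below 0 on both Cy5 arrays. The difference of Cdc25a between the lines was 0.25 over all arrays, 0.63 on the Cy3 arrays and -0.14 on the Cy5 arrays. That of Aurkb was 0.37 on the Cy3 arrays and 0.020 on the Cy5 arrays.

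The other genes lay close to 0. The ratios of Mad2l1bp were -0.18 (T11), -0.14 (T13), 0.08 (T9) and 0.04 (T15) in 3T3-tTA-eIF4E, and 0.07 (T1), 0.03 (T7), -0.14 (T3) and -0.15 (T5) in 3T3-tTA. Those of Cetn3 were -0.17 (T11), -0.10 (T13), -0.12 (T9) and 0.06 (T15) in 3T3-tTA-eIF4E, and -0.32 (T1), -0.03 (T7), -0.16 (T3) and -0.18 (T5) in 3T3-tTA. These centred slightly below 0 in both lines. Pes1 ranged from -0.23 to 0.22 in 3T3-tTA-eIF4E and from -0.11 to 0.22 in 3T3-tTA. Tent4b ranged from -0.12 to 0.10 in 3T3-tTA-eIF4E and from -0.18 to 0.11 in 3T3-tTA, so that the gene with the widest polysomal arrays had closely spaced arrays in total RNA.

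Within each line, the mean change in total RNA was -0.08 to 0.10 over the 6 genes in 3T3-tTA-eIF4E and -0.27 to 0.04 in 3T3-tTA. None was called by limma, with adjusted p-values of 0.964 to 0.992 in 3T3-tTA-eIF4E and of 0.897 to 0.955 in 3T3-tTA, and of 0.334 (Cdc25a in 3T3-tTA without T13) to 1.00 over all alternatives. Over all rows 0.0131% were called as higher in 3T3-tTA-eIF4E and 0% in 3T3-tTA, and 0% as lower in either. At an unadjusted p under 0.05 stood 3.31% and 4.16% of all rows. By limma on extraction means Cdc25a was the 1 gene at that level, with a change of -0.27 in 3T3-tTA (SE 0.10, unadjusted p = 0.0397, adjusted p = 0.897), which was -0.14 without T1. With arrays as replicates limma gave an unadjusted p of 0.0616 for Cdc25a and of 0.0388 for Cetn3, whose change in 3T3-tTA was -0.17, so that a different gene stood at that level. In 3T3-tTA all 4 arrays were below 0 for Cdc25a and Cetn3 and in 8.15% of all rows.

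**Figure D5:**
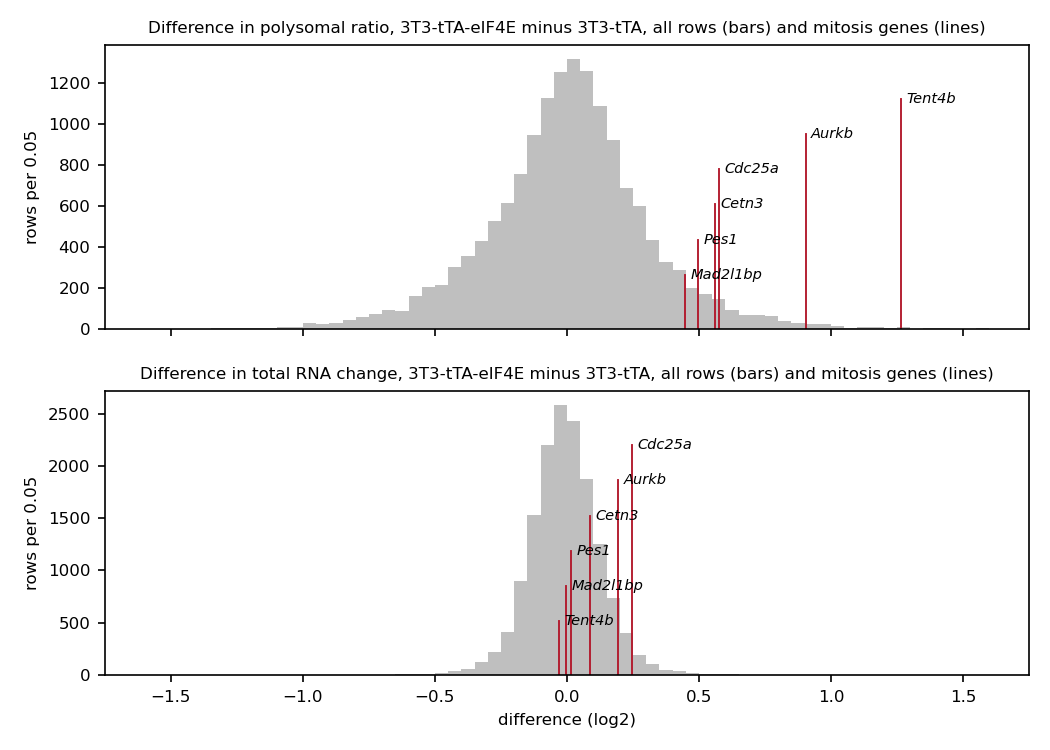
Number of rows (vertical axis) by difference between the cell lines on the log2 scale (horizontal axis), for the polysomal ratio (upper) and the change in total RNA (lower). Red lines mark the mitosis genes, which lie at 0.45 to 1.26 in the upper plot, by the way they were chosen, and at -0.03 to 0.25 in the lower.

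Across the 16 arrays, with the dye term of each kind of RNA removed, the 15 pairs of mitosis genes had correlations of 0.05 to 0.82 (median 0.35). The closest pairs were Aurkb with Cdc25a (0.82) and Pes1 with Tent4b (0.77), and the most distant was Cetn3 with Pes1 (0.05). The points share arrays and extractions, and the polysomal difference between the lines, for which all 6 genes were chosen, was left in and adds to the correlation of every pair. In a check chosen after the values had been seen, the first correlation was 0.50 without P3 and P15 and the second 0.35 without P11. Over the polysomal arrays alone these correlations were 0.90 and 0.93, and 0.83 and 0.74 without the same arrays. Among 569 clones of other genes that the study lists as changed in total RNA or translation, the one most alike over the 16 arrays was that of Qdpr for Aurkb (r = 0.96), Gnai1 for Cdc25a (0.89), Rras2 for Mad2l1bp (0.88), Gfer for Cetn3 (0.94), Mns1 for Pes1 (0.88) and Nav2 for Tent4b (0.93). All of these are listed as activated in translation, which the search favours, since the clones were listed by the difference that also chose the mitosis genes. Their own polysomal differences were 0.64, 0.93, 0.44, 0.69, 0.35 and 1.25 in the same order.

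Other genes of the cell cycle were listed in both directions. Of 75 such genes outside the category, 16 had a clone that the study lists by translation and that was found in 1 row, 5 of them as activated and 11 as repressed, beside 301 and 242 of all listed clones found in 1 row. All were chosen by the study on these arrays, so that their directions are not evidence of their own. The activated genes were Mos (1.19), a kinase of oocyte maturation, Rpa1 (0.95), which binds single-stranded DNA in replication, Ccndbp1 (0.65), which binds D-type cyclins, Cdkn1c (0.64), an inhibitor of cyclin-dependent kinases, and Foxm1 (0.44), a transcription factor of genes used late in the cycle. Functions of mitosis also occurred among the repressed genes. Bub3 of the spindle checkpoint had a difference in log2 polysomal ratio of -0.67, Smc2 of condensin of -0.59, and the dynein regulator Nde1 of -0.64. Apc (-0.80), Clip1 (-0.58) and Map4 (-0.56) bind microtubules, and Shcbp1 (-0.61) is a protein of the midbody. Usp16 (-1.20) removes ubiquitin from histone H2A. Chaf1b (-1.06) and Chaf1a (-0.97), which assemble chromatin, and Timeless (-0.68), of the replication fork, act in DNA synthesis. Mos, Ccndbp1, Bub3, Nde1, Apc, Shcbp1 and Chaf1a were not above background on all 4 scanned arrays, so that their values are uncertain.

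In total RNA 0 of these 16 genes were called by limma on extraction means, and 0 had an unadjusted p under 0.05. Their differences between the lines ranged from -0.18 to 0.31, with a median of -0.05. A further 4 genes of the cell cycle are listed by the study as induced in total RNA on these arrays. Their differences in total RNA were 0.79 for Cdk8, a kinase of the Mediator complex, 0.47 for Cks1b, which binds cyclin-dependent kinases, 0.43 for the tubulin Tubb5 and 0.39 for securin (Pttg1). None of the 4 was called (adjusted p = 1.00 each, from limma on extraction means), and their arrays overlapped between the lines. Only Cdk8 had an unadjusted p under 0.05 by limma (unadjusted p = 0.0471, adjusted p = 1.00). The study chose these genes by this same difference, with paired SAM on spots, so that such a p-value is not evidence of its own. Limma on extraction means did not call Eif4e between the lines either. The SD over the 4 arrays of 3T3-tTA-eIF4E was 0.94 for Cdk8 and 1.17 for Tubb5, and Cks1b was not above background on all scanned arrays. In log2 polysomal ratio, which did not choose them, they differed by -0.85, 0.55, -0.43 and 0.16 in the same order, and these differences were not tested.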

How the data were processed

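Values for 32 samples, the 2 spots of 16 arrays, were used, together with the scanner intensities of 4 polysomal arrays, which the authors deposited without normalization. The authors deposited log2 ratios of Cy3 over Cy5, made with a GenePix scanner and limma's lowess within each array without background subtraction. No version was given in the sources used here, and no column of values lacked a sample. Log2 ratios recomputed from the intensities correlated with the deposited ones at 0.994 or more, which also matched all 15247 rows to pairs of the 31200 spots. Ratios were turned by the dyes in the labels and duplicate spots averaged. All 6 genes were found by the listed mean difference, matched to 6 significant digits. Of 554 clones listed by translation 543 were found in 1 row. RefSeq gave current names for 3 of the 6 genes by accession, for 2 by symbol and for Tent4b by synonym.

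Limma 3.58.1 (R 4.3.3) was run over all 15247 rows on means of the 2 extractions of a condition. Which arrays share an extraction is not stated, so each of the 4 assignments was fitted and the largest p kept. P-values were adjusted by the Benjamini-Hochberg method, with calls at an adjusted p under 0.1 and at least 1.3-fold. The dye term is the difference between Cy3 and Cy5 arrays of a row. SAM on spot pairs was written in Python 3.11.15 with numpy 2.4.6. Both were tested on simulated data. An SD is taken over 4 arrays made from 2 extractions, and it holds the effect of the dye, which cancels in the difference between the lines. P-values of limma on extraction means measure the spread between assumed pairs of arrays, since the true pairs are not known. Those with arrays as replicates or paired arrays measure the spread between arrays, and those of SAM that between spot pairs. The number of arrays limits the precision.

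The genes and lists were chosen with earlier results of these data known. Named are the 6 genes, the Eif4e clones, each listed cell cycle gene with a row, and for each mitosis gene the most alike clone of another listed gene. The fibroblast, epithelial, blood and endothelial markers were looked up among listed clones only.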

Additional observations from a re-analysis of the deposited data

Results flagged for a closer look

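In 24 groups of 4 arrays, 6 genes in 4 conditions, the highest or lowest array was set against the others by the gap to its nearest neighbour, as a share of the range of the group (Dixon's test), which by chance marks about 1 of 20 groups. It marked 2. The polysomal ratio of Aurkb on P3, an array of 3T3-tTA-eIF4E, was 2.14 on the log2 scale, with the other 3 arrays at -0.07 to 0.30. The total RNA ratio of Tent4b on T11, also of 3T3-tTA-eIF4E, was 0.10, with the other 3 arrays at -0.12 to -0.11, a group whose whole range of 0.22 was smaller than the median range of 0.57 over all rows.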

How the results depend on the processing

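The counts of called genes, 0 in total RNA between the lines, 0 within the lines and 0 for the mean polysomal ratio, were 0 under every alternative tried for each. Since limma on extraction means also called 0 of the 3 Eif4e clones between the lines, the first of these counts says nothing of stability. The median polysomal difference of the 6 genes, 0.57, was 0.42 to 0.76 with an array left out. It was 0.94 on the Cy5 arrays alone and 0.99 on the 4 scanned arrays as deposited, and the other alternatives gave 0.31 to 0.70. Among 24 tested values of single genes, 11 took the other sign under some alternative, none of them called. Leaving out an array gave -0.050 to 0.047 for Mad2l1bp, -0.072 to 0.11 for Pes1 and -0.081 to 0.020 for Tent4b in the total RNA difference, -0.081 to 0.020 for Tent4b, -0.0074 to 0.095 for Pes1 and -0.22 to 0.036 for Aurkb in the change in 3T3-tTA, -0.16 to 0.097 for Cdc25a and -0.030 to 0.15 for Pes1 in that in 3T3-tTA-eIF4E, and -0.14 to 0.45 for Tent4b and -0.15 to 0.44 for Aurkb in the mean polysomal ratio. The total RNA difference of Mad2l1bp (-0.002) was 0.0082 with arrays centred, 0.025 with arrays scaled, 0.032 from the first spots and 0.20 on the Cy5 arrays, against -0.21 on the Cy3 arrays. That of Pes1 was -0.0011 from the second spots, and that of Cdc25a -0.14 on the Cy5 arrays. The mean polysomal ratio of Tent4b was -0.014 from the first spots. The cause was not tested. By replicate number no paired analysis was possible because the labels give the lines no shared numbers. SAM, and limma in a check added after the data had been seen, were instead run on arrays paired within each dye, in each of the 4 ways to join them, and called 0 of the 6 genes in total RNA. Under these pairings limma called 0 or 1 of all 15247 rows, and the share for SAM was not counted. The count of 0 therefore shows no stability. Signal over background is known for the 4 scanned arrays only.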
